A study of Mus musculus with 947 samples.

Results

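Liver and kidney are the 2 large metabolic organs of the mouse noncoding RNA atlas, and their small RNA libraries were set against each other here to find the RNAs that separate them. The members were chosen by organ, cohort, age and, for TMS kidney, sample number, and made up 141 of the 945 libraries of the series. In the aging cohort (TMS) they were 45 liver and 37 kidney libraries, or 82 of 769, from male and virgin female C57BL/6JN mice aged 3, 6, 9, 12, 15, 18 or 21 months and from males alone at 24 and 27 months, with 3 to 6 libraries for each organ and age. Females gave 12 of the liver and 10 of the kidney libraries. The kidney samples numbered 1 to 12 were left out by rule. In the parabiosis cohort, in which pairs of mice shared a circulation for 5 weeks, they were 30 liver and 29 kidney libraries, or 59 of 176, and all mice were male. Young mice of isochronic pairs (IY) were C57BL/6JN aged 3 or 4.5 months with 8 libraries an organ, whereas young mice of heterochronic pairs (HY) were 4 months old and gave 7. Aged partners were 19 months old, of strain C57BL/6JN or C57BL/6J, with 7 liver and 6 kidney libraries of heterochronic pairs (HA) and 8 an organ of isochronic pairs (IA). All animals were perfused with buffered saline, and RNA came from frozen whole tissue, so each value is a mean over the cell types of an organ.

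MicroRNAs (miRNAs) are short RNAs that guide Argonaute proteins to messenger RNAs, mainly through the seed at bases 2 to 8, and repress them. Both arms of a hairpin precursor (5p and 3p) can be loaded, and miRNAs that share a seed form a family with overlapping targets. Liver is dominated by hepatocytes, whose best known miRNA is miR-122, a regulator of lipid metabolism. Kidney is made mainly of tubule epithelium, with podocytes, vessels and stroma, and epithelia are known for the miR-200 family, which represses the mesenchymal factors Zeb1 and Zeb2.

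The sequences of the miRNAs on which the comparison turns are given from RefSeq (GRCm38.p6) with the seed in capitals. Of the 607 miRNAs tested, 495 had a sequence there. The miR-148 family, miR-101b and miR-802 are shown first because they lay on the liver side or, for miR-148b and miR-152, share a seed with a member that did. The sequence of miR-148a-3p is at chr6:51269829-51269850 on the minus strand, 162820 bases from the nearest protein-coding gene Nfe2l3, that of miR-148b-3p at chr15:103285185-103285206 in an intron of Copz1, that of miR-152-3p at chr11:96850439-96850459 in an intron of Copz2, that of miR-101b-3p at chr19:29135338-29135356 in an intron of Rcl1, and that of miR-802-5p at chr16:93369737-93369758, 213699 bases from Setd4. Between miR-148a-3p and miR-148b-3p the differences, counted from 1 at the 5′ end, were C9U and U10C, both outside the seed.
miR-148a-3p: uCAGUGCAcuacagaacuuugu
miR-148b-3p: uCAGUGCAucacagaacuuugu
miR-152-3p: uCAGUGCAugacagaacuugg
miR-101b-3p: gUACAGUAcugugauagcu
miR-802-5p: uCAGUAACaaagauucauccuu

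The miRNAs of the Hox clusters are shown because they had the largest differences on the kidney side and because each pair differs by a single base: U12A from miR-10a-5p to miR-10b-5p, and A12C from miR-196a-5p to miR-196b-5p. miR-10a lies 1059 bases from Hoxb4 (chr11:96317186-96317208), miR-10b in an intron of Hoxd3 and Hoxd4 (chr2:74726074-74726096), and miR-196b in an exon of Hoxa9 (chr6:52230129-52230150, minus strand). There are 2 copies of miR-196a, 6249 bases from Hoxb9 and in an intron of Hoxc5. Reads were mapped by the authors with 1 mismatch allowed, so reads could be shared within each of these pairs.
miR-10a-5p: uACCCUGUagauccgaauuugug
miR-10b-5p: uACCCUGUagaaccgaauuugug
miR-196a-5p: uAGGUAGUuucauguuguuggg
miR-196b-5p: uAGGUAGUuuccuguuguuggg

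The miR-200 family holds 2 seeds and is shown because members of both seeds lay on the kidney side. The genes of miR-200b, miR-200a and miR-429 share an intron of Ttll10, and those of miR-200c and miR-141 an intron of Gm15884.
miR-200b-3p: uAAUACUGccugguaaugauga
miR-200c-3p: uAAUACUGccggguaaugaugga
miR-429-3p: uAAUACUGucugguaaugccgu
miR-200a-3p: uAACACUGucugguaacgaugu
miR-141-3p: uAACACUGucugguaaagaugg

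miR-204 and its relative miR-211, which lie in introns of Trpm3 and Trpm1 and differ by A17U, miR-218, with copies in introns of Slit2 and Slit3, and miR-9, with a copy in an exon of C130071C03Rik, are shown as further miRNAs of the kidney side.
miR-204-5p: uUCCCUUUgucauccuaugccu
miR-211-5p: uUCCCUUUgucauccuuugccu
miR-218-5p: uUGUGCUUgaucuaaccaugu
miR-9-5p: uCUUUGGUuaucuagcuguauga

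The last set is shown for ratios within a seed family and for the age comparison. miR-17 and miR-20a come from 1 host transcript (Mir17hg), miR-20b and miR-106a from a paralogous cluster on the X chromosome, and miR-741 and miR-465a from another X-linked cluster that is rich in miRNAs. From miR-17-5p to miR-106a-5p the difference was U10A, and from miR-20a-5p to miR-20b-5p U1C and U10C.
miR-17-5p: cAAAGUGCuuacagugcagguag
miR-20a-5p: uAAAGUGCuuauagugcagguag
miR-20b-5p: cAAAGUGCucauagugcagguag
miR-106a-5p: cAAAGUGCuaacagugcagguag
miR-741-3p: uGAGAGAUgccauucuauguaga
miR-465a-3p: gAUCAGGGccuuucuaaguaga

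Levels are reads per 1000000 mapped reads (rpmm). Median depth, in units of 1000000 mapped reads, was 16.1 for liver (range 2.29 to 29.4) and 19.4 for kidney (3.16 to 38.6) in TMS, and 17.7 (9.87 to 27.98) and 21.0 (13.6 to 47.6) in parabiosis. Each of the 82 TMS libraries was closest to the median profile of its own organ among the 16 tissues. With the 8 kidney libraries numbered 1 to 12, the lowest miRNA share of a kidney library would be 1.73% instead of 16.5%. Against their labelled sex stood 3 TMS libraries. Liver replicate 31, labelled female at 9 months, held 9.82 rpmm of miR-741-3p, against 0 to 1.07 rpmm in the other 11 female livers of 3 to 21 months. Kidney replicate 16, labelled female at 18 months, held 0.0579 rpmm of miR-483-5p, against 1.27 to 7.66 rpmm in the other 9 female kidneys, and kidney replicate 15, labelled male at 24 months, held 5.19 rpmm, against 0 to 0.407 rpmm in the 20 males of 3 to 21 months. The main counts of TMS are given with and without them. The libraries were noticed through these same miRNAs, so values without them are descriptions.

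The organs were compared with limma on log2(rpmm + 1), a scale that understates the differences of low RNAs. An RNA was called at a Benjamini-Hochberg adjusted p under 0.05 over all RNAs tested and a difference of at least 1 on the log2 scale, and separated where no library of one organ overlapped the other. In TMS, 386 of 3772 RNAs (10.2%) were called, of which 137 were higher in liver (3.63%) and 249 in kidney (6.6%). Of the 607 miRNAs, 260 (42.8%) were called, 41 higher in liver (6.75%) and 219 in kidney (36.1%), and 79 (13%) were separated, 10 toward liver (1.65%) and 69 toward kidney (11.4%). Over all RNAs, 84 (2.23%) were separated, 13 toward liver (0.345%) and 71 toward kidney (1.88%). The median log2 difference, liver minus kidney, was -0.68 over the 607 miRNAs and -0.06 over all RNAs. Scaling to miRNA reads raised the median difference of all RNAs by 0.27 in TMS and by 0.67 in parabiosis, and the split of called RNAs became 372 liver to 257 kidney in TMS in place of 137 to 249. Without the 3 libraries that stood against their labelled sex, 393 RNAs and 264 miRNAs were called, and 85 RNAs and 80 miRNAs were separated.

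Parabiosis samples gave the same direction for the miRNAs called in TMS. There, 736 of 3659 RNAs (20.1%) were called, 306 toward liver (8.36%) and 430 toward kidney (11.8%), and with scaling to miRNA reads 1072 and 295. Of 579 miRNAs, 356 (61.5%) were called, 31 toward liver (5.35%) and 325 toward kidney (56.1%). All 260 miRNAs called in TMS had the same sign in parabiosis, and 245 were called in the same direction. Of the separated miRNAs, 8 of 10 on the liver side and 64 of 69 on the kidney side were also separated in parabiosis, and 77 of 3510 RNAs tested in both cohorts (2.19%) were separated in both, 11 toward liver (0.313%) and 66 toward kidney (1.88%). Over the 571 miRNAs tested in both, the log2 differences had a Pearson r of 0.967 and a Spearman rho of 0.915, as a description across miRNAs, which are not independent replicates.

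**Figure D1:**
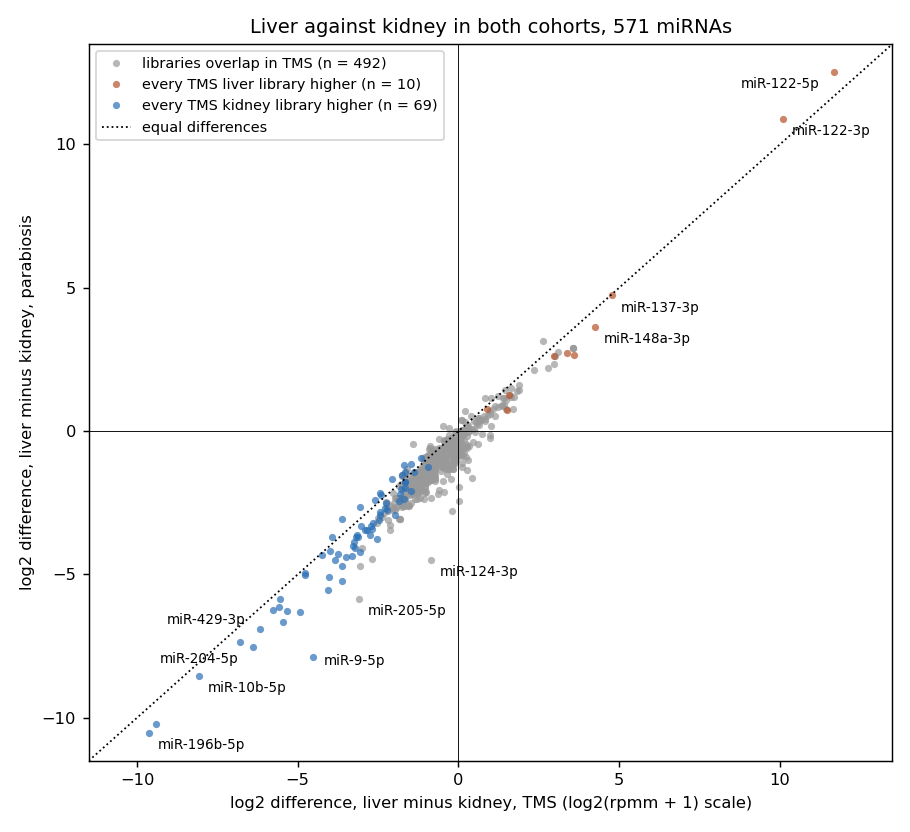
Log2 difference between liver and kidney (liver minus kidney, log2(rpmm + 1) scale) in TMS (x axis) and parabiosis (y axis), 1 point a miRNA, colored by separation in TMS. Most of the 571 points fall below the line of equal differences (median -0.68 in TMS and -1.17 in parabiosis over all miRNAs), with miR-122-5p at the upper right (11.69 and 12.53) and miR-196b-5p at the lower left (-9.63 and -10.54), and miR-124-3p (-0.86 and -4.49), miR-9-5p (-4.53 and -7.89) and miR-205-5p (-3.11 and -5.84) lie far below it.

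miR-122-5p was the main RNA of the liver side. In liver it had a lowest, median and highest level of 37817, 108880 and 173720 rpmm, and in kidney of 7.64, 26.2 and 121 rpmm. The 2 sets of libraries lay far apart, and the log2 difference was 11.69 ± 0.17 (SE; limma, adjusted p = 1.56e-70). It held 30.8% ± 4.94 (SD, n = 45) of the miRNA signal of liver and 0.00962% of that of kidney. The other arm, miR-122-3p, had levels of 502, 2591 and 10059 rpmm in liver and 0.103, 1.13 and 19.3 rpmm in kidney, a log2 difference of 10.08. In parabiosis the differences were 12.53 and 10.90. In TMS the kidney values moved with sequencing pools. Kidney miR-122-5p lay at 14.3 to 121 rpmm (median 30.3) in the 29 kidney libraries pooled with liver libraries and at 7.64 to 16.5 rpmm (median 8.56) in 5 pooled without, and the part of pooling in the kidney level was not tested. In parabiosis no pool held both organs, and kidney miR-122-5p lay at 1.48 to 391 rpmm (median 12.8). Pool and organ cannot be told apart there. In whole tissue, fewer cells of a type and less RNA per cell cannot be told apart either, here and for every difference that follows.

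Next on the liver side came miR-137-3p, best known from neurons. Its lowest, median and highest levels were 52.9, 150 and 349 rpmm in liver and 2.08, 4.24 and 33.6 rpmm in kidney. The organs did not overlap, and the log2 difference was 4.77 ± 0.14 (SE). The host transcripts of miR-137 in the annotation (Gm26871, 2 transcripts) differed by 4.76 and 4.22. miR-148a-3p, a miRNA of hepatocytes that acts on the low-density lipoprotein receptor, had levels of 233, 607 and 1424 rpmm in liver and 11.8, 31.6 and 106 rpmm in kidney, again without overlap, and a log2 difference of 4.24 ± 0.12 (SE). For miR-101b-3p, of a family known to act on the histone methyltransferase Ezh2, the levels were 1944, 4460 and 10717 rpmm in liver and 271, 512 and 1331 rpmm in kidney. It was also separated, with a log2 difference of 2.98 ± 0.11 (SE), whereas its relative miR-101a-3p lay on the kidney side (-1.004).

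Both arms of miR-1948 were separated. miR-1948-3p had levels of 2.39, 23.6 and 50.8 rpmm in liver and 0.184, 0.536 and 1.36 rpmm in kidney, a log2 difference of 3.60 ± 0.14 (SE), and miR-1948-5p differed by 3.37. miR-802-5p, known for a part in glucose metabolism, was called but overlapped. Its levels were 21.6, 148 and 490 rpmm in liver and 3.35, 16.2 and 70.8 rpmm in kidney, and the log2 difference was 2.99 ± 0.18 (SE). The 3p arm differed by 3.09. The other called miRNAs among the 10 with the largest differences toward liver were members of an X-linked cluster: miR-465a-3p had levels of 0, 11.8 and 190 rpmm in liver and of 0, 0.0587 and 0.438 rpmm in kidney, with a log2 difference of 3.56 ± 0.30 (SE) and overlap.

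**Figure D2:**
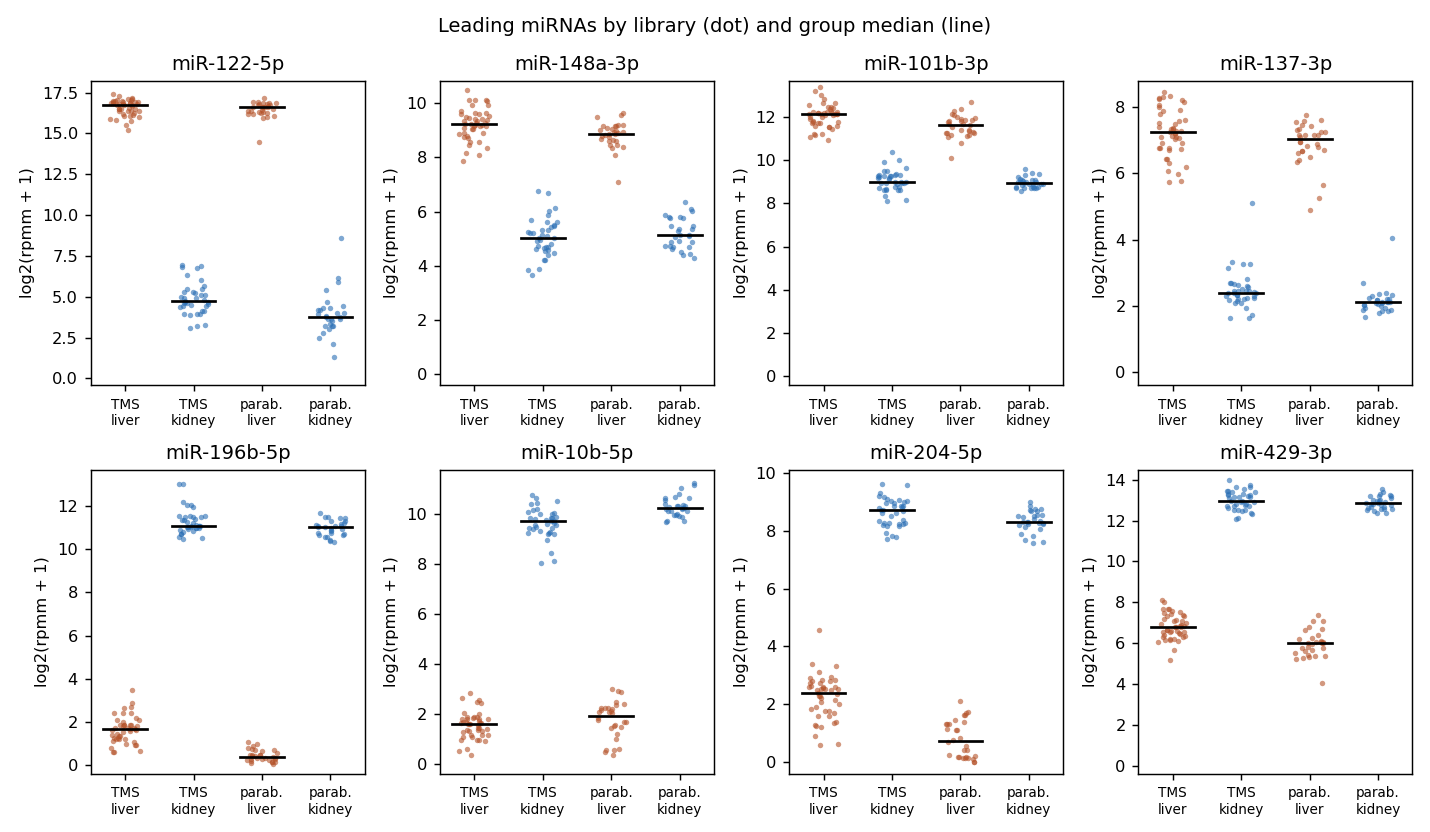
Levels of 8 miRNAs as log2(rpmm + 1) (y axis), 1 dot a library, in TMS and parabiosis liver and kidney, with group medians as lines. In each panel the liver and kidney libraries stay apart within each cohort, with liver above for miR-122-5p, miR-148a-3p, miR-101b-3p and miR-137-3p and kidney above for miR-196b-5p, miR-10b-5p, miR-204-5p and miR-429-3p.

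The list of hepatocyte-linked miRNAs was divided. Of 19 tested, 8 were called toward liver and 2 toward kidney, beside 6.75% and 36.1% of all miRNAs in TMS. The median log2 difference of the list was 0.83 in TMS and 0.23 in parabiosis. The 8 were both arms of miR-122, miR-802 and miR-1948 with miR-148a-3p and miR-101b-3p, and the kidney calls were miR-101a-3p and miR-103-3p (-1.16). miR-192-5p and miR-194-5p, which are expressed from shared transcripts in liver, kidney and gut, differed by 0.83 and 0.64 and were not called, but their relative miR-215-5p was (1.02). miR-192-5p held 8.43% of the miRNA signal of liver and 3.90% of that of kidney. miR-21a-5p, a miRNA that rises in injury and growth, differed by 0.98 in TMS and by -0.12 in parabiosis and was not called in TMS.

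The sizes of these differences varied over age and group. miR-122-5p differed by 10.54 to 12.65 over the 9 ages and by 11.78 to 13.01 over the 4 parabiosis groups. miR-148a-3p differed by 3.79 to 4.87 over the ages and by 3.10 to 4.07 over the groups, and miR-137-3p by 3.16 to 5.62 over the ages. Of the miRNAs that overlapped over all ages, miR-802-5p was separated at 6 of 9 ages and miR-205-5p at 8. Others ranged from all 9 ages, as for miR-143-3p and miR-30e-5p, to 0, as for miR-150-5p.

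On the kidney side, the miRNAs of the Hox clusters had the largest differences. These genes lie among the Hox genes, which set position along the body axis. miR-196b-5p had a lowest, median and highest level of 0.523, 2.21 and 10.04 rpmm in liver and 1432, 2191 and 8382 rpmm in kidney, and miR-196a-5p of 0, 1.19 and 8.51 rpmm in liver and 831, 1513 and 5207 rpmm in kidney. Neither overlapped, and the log2 differences were -9.63 ± 0.14 and -9.40 ± 0.15 (SE). miR-10b-5p had levels of 0.276, 2.00 and 6.18 rpmm in liver and 262, 838 and 1754 rpmm in kidney, a log2 difference of -8.08 ± 0.13 (SE). Its near copy miR-10a-5p was present in both organs, at 51.7, 161 and 401 rpmm in liver and 652, 1972 and 3743 rpmm in kidney, and differed by -3.63 ± 0.14 (SE). miR-615-3p, at 0, 0.307 and 1.197 rpmm in liver and 21.9, 64.3 and 127 rpmm in kidney, differed by -5.59. All 8 miRNAs of this list were separated and 7 were called, the exception being miR-615-5p (-0.94). Among all miRNAs, 11.4% were separated and 36.1% called toward kidney. The list median was -5.19 in TMS and -5.57 in parabiosis, and the summed level was 64 to 428 rpmm in liver and 4357 to 14608 rpmm in kidney. The low liver levels also differed between pools and cohorts: the liver median of miR-196a-5p was 1.59 rpmm in libraries pooled with kidney, 0.957 in those pooled without and 0.0457 in parabiosis, and that of miR-10b-5p was 2.07, 1.51 and 2.80 rpmm. The part of pooling was not tested.

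All 10 miRNAs of the miR-200 family were called toward kidney, and 9 were separated, beside 36.1% and 11.4% of all miRNAs in TMS. miR-429-3p had the largest difference. Its levels were 35.2, 110 and 275 rpmm in liver and 4294, 8048 and 16309 rpmm in kidney, a log2 difference of -6.16 ± 0.12 (SE). miR-200b-3p followed, with 17.3, 37.4 and 85.9 rpmm in liver, 1003, 2237 and 4330 rpmm in kidney and a difference of -5.78. The members of the other seed were as far apart, miR-200a-3p at -5.46 and miR-141-3p at -4.94, as was miR-200c-3p from the second genomic cluster (-5.33, from a liver median of 34.6 rpmm to a kidney median of 1321 rpmm). The median was -5.14 in TMS and -6.05 in parabiosis, and the summed level was 107 to 484 rpmm in liver and 9448 to 23552 rpmm in kidney.

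Of 19 miRNAs linked to kidney tubule or podocytes, 14 were called toward kidney and 1 (miR-215-5p) toward liver, beside 36.1% and 6.75% of all miRNAs. There were 4 separated, and the median was -1.51 in TMS and -2.08 in parabiosis. miR-218-5p, hosted by genes of the axon guidance ligands Slit2 and Slit3, had levels of 2.04, 7.80 and 25.3 rpmm in liver and 197, 868 and 3082 rpmm in kidney, and differed by -6.81 ± 0.18 (SE). miR-204-5p, a miRNA of tubule and pigment epithelium, had levels of 0.516, 4.20 and 22.5 rpmm in liver and 210, 416 and 792 rpmm in kidney, and differed by -6.38 ± 0.15 (SE). Both were separated, whereas miR-211-5p, which shares the seed of miR-204-5p, overlapped (-1.63). miR-190a-5p was separated too, at 27.2, 82.9 and 160 rpmm in liver and 375, 870 and 1688 rpmm in kidney (-3.32). The miR-30 family, abundant in tubule and podocytes, was called for 7 of 7 listed arms at smaller sizes, from -1.05 for miR-30a-5p to -2.49 for miR-30e-3p. miR-210-3p, a miRNA of hypoxia, and miR-146a-5p, of inflammation, were not called (-0.99 and -0.80).

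Among partners from shared transcripts, sizes were near each other in some groups and not in others. Of 16 polycistron partners, 14 were called toward kidney and none toward liver, with a median of -1.66 in TMS and -2.15 in parabiosis. Over all miRNAs tested in TMS, 36.1% were called toward kidney and 6.75% toward liver, with a median of -0.68 (-1.17 in parabiosis). The miR-99b, let-7e and miR-125a partners differed by -2.31, -2.04 and -1.87, miR-23a-3p and miR-27a-3p by -1.81 and -1.69 (both separated), and miR-34b-5p and miR-34c-5p, known from ciliated cells, by -3.05 and -3.07. miR-183-5p and miR-182-5p differed by -1.51 and -1.18, their partner miR-96-5p (-0.87) was not called, and neither was miR-100-5p (-0.18). Over all miRNAs with a position, 42 groups of genes within 10 kb of each other held tested miRNAs, and 25 of them had at least 2 called members. In 23 all calls were toward kidney, in 2 all were toward liver, and no group was mixed. These counts are to be read beside the 41 liver and 219 kidney calls among all miRNAs. The 2 liver groups both lay on the X chromosome: chrX:66776760-66839084 on the minus strand, with 17 of 29 miRNAs called, and chrX:67988135-67988403, with miR-201-5p and miR-547-3p. Of the 18 tested members of the imprinted Dlk1-Dio3 cluster, 1 was called, miR-376b-3p toward liver (1.22), and the median was -0.09. In parabiosis 1 of 17 was called toward liver and 4 toward kidney, with a median of -0.57, and miR-127-3p (-2.04) and miR-136-5p (-1.96) were separated there.

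**Figure D3:**
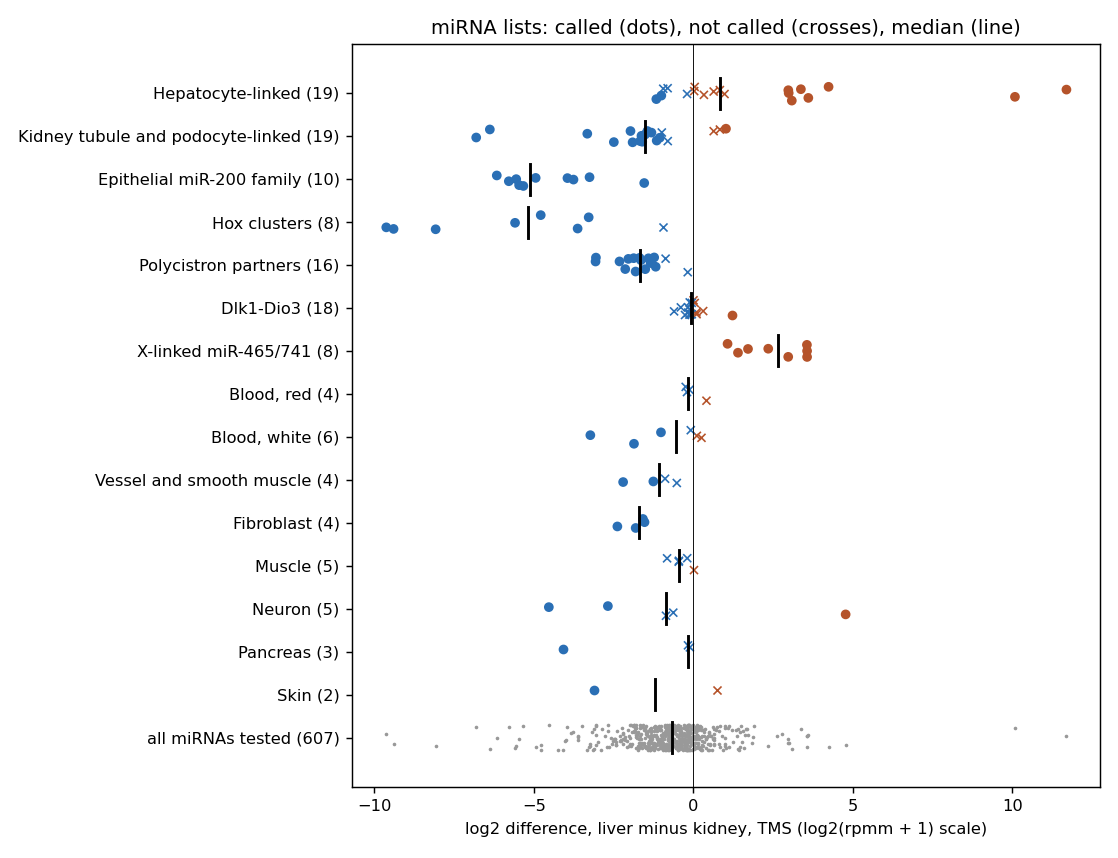
Log2 difference between liver and kidney in TMS (x axis, liver minus kidney) for each miRNA of the lists (y axis, number tested in parentheses), with dots for called and crosses for not called miRNAs, a line at the median, and all 607 miRNAs at the bottom. The miR-200 family and Hox lists lie at -1.54 to -6.16 and -0.94 to -9.63, left of the median of all miRNAs (-0.68), and the 8 X-linked miRNAs lie at 1.07 to 3.56.

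Markers of other cells were called toward kidney in numbers to be read beside the 36.1% of all miRNAs in TMS and 56.1% in parabiosis. All 4 fibroblast miRNAs were called in both cohorts (median -1.69 in TMS), with a summed level of 466.3 to 2415 rpmm in liver and 1907 to 7096 rpmm in kidney. Of 4 vessel and smooth muscle miRNAs, miR-143-3p (-2.20) and miR-145a-5p (-1.25) were called in TMS, and miR-126a-3p of endothelium was not (-0.89), with a summed level of 4562 to 17239 rpmm against 16898 to 39206 rpmm. Of 6 white blood cell miRNAs, miR-181a-5p (-3.23), miR-155-5p (-1.86) and miR-150-5p (-1.01) were called toward kidney, with a summed level of 841 to 3487 rpmm against 5416 to 14730 rpmm, but miR-142a-3p (0.11) and miR-223-3p (-0.08) were not. In parabiosis all 4 vessel and 5 of the 6 white blood cell miRNAs were called toward kidney. The 4 red blood cell miRNAs were not called in TMS (median -0.16) and summed to 190 to 3285 rpmm in liver and 128 to 4664 rpmm in kidney, but 3 of them were called toward kidney in parabiosis (median -1.34). None of 5 muscle miRNAs was called in TMS and 2 were in parabiosis, toward kidney. The part of these cells in the kidney-side calls was not tested.

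Single miRNAs of the kidney side are best known from other organs. In TMS, other markers of those organs did not share their direction or were not called. Of 5 neuron miRNAs, 2 were called toward kidney and 1, miR-137-3p, toward liver, and miR-124-3p (-0.86) and miR-153-3p (-0.63) were not called in TMS. In parabiosis 4 of the 5 were called toward kidney, among them miR-124-3p (-4.49) and miR-153-3p (-2.21), and miR-137-3p toward liver. In the pancreas list miR-216a-5p (-0.17) and miR-217-5p (-0.11), and in the skin list miR-203-3p (0.73), were not called. miR-9-5p of neurons had levels of 3.47, 18.5 and 185 rpmm in liver and 244, 484 and 821 rpmm in kidney and was separated, with a difference of -4.53 ± 0.20 (SE) in TMS and -7.89 in parabiosis. miR-375-3p of pancreatic islets had levels of 3.49, 10.2 and 35.1 rpmm in liver and 87.9, 192 and 626 rpmm in kidney and was separated (-4.07). miR-205-5p of stratified epithelia overlapped, at 1.199, 17.3 and 118 rpmm in liver and 94.1, 137 and 215 rpmm in kidney (-3.11 in TMS, -5.84 in parabiosis). Liver levels of miR-9-5p and miR-205-5p moved with the pool. The liver median of miR-9-5p was 22.5 rpmm in the 34 libraries pooled with brain, 11.9 in 9 pooled without and 0.693 in parabiosis, and that of miR-205-5p was 21.7 rpmm with skin in the pool, 3.47 without and 1.27 in parabiosis. That of miR-375-3p was 11.9 rpmm with pancreas in the pool, 10.2 without and 3.17 in parabiosis. The part of pooling in these differences was not tested.

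Within seed families, ratios between 2 members of a library depend little on its scaling, except near the 1 rpmm added to both members. Low members in liver were miR-10b-5p (median 2.00 rpmm), miR-106a-5p and miR-20b-5p, so the sizes of their ratio differences depend on the added 1 rpmm. Of 122 pairs tested with limma, 39 (32%) were called, 29 higher in liver (23.8%) and 10 in kidney (8.2%), in 16 seed families. The log2 ratio of miR-148a-3p to miR-148b-3p was 4.05, 4.86 and 5.73 (lowest, median and highest) in liver and -1.14, -0.10 and 1.27 in kidney. The organs did not overlap, and the ratio differed by 4.77 ± 0.095 (SE, adjusted p = 4.50e-56). Means of miR-148a-3p and miR-148b-3p were 647 and 22.3 rpmm in liver and 36.9 and 34.4 rpmm in kidney. The third member of the seed, miR-152-3p, had means of 99.3 and 196 rpmm and was not called, and the log2 ratio of miR-148a-3p to it differed by 5.20. In the miR-10 pair the log2 ratio of miR-10a-5p to miR-10b-5p was 4.39 to 7.04 in liver and 0.72 to 1.76 in kidney, a difference of 4.45. In the miR-17 family, the X-linked members stood out from those of Mir17hg. miR-20a-5p had means of 644 rpmm in liver and 759 rpmm in kidney, whereas miR-20b-5p had 4.73 and 81.9 rpmm, and their log2 ratio differed by 3.60. miR-106a-5p had means of 2.53 and 29.96 rpmm, and its log2 ratio to miR-17-5p differed by -2.36. miR-130a-3p had means of 4602 and 3844 rpmm and its seed partner miR-301a-3p 29.4 and 175 rpmm, a ratio difference of 2.79. These calls were also made in parabiosis, and without the 3 libraries that stood against their labelled sex 38 pairs were called.

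The balance of the 2 arms of a hairpin differed for few miRNAs. Ratios were taken after 1 rpmm was added to each arm, which weighs on arms near 1 rpmm. Of 96 hairpins tested, 5 (5.21%) were called, 2 with a higher ratio of 5p to 3p in liver (2.08%) and 3 with one in kidney (3.12%). The log2 ratio of 5p to 3p of miR-9 was 1.38, 2.70 and 3.77 in liver and 2.98, 4.57 and 6.71 in kidney, and the ratio differed by -1.85 ± 0.14 (SE; limma, adjusted p = 9.48e-20) with overlap and by -3.42 in parabiosis. In liver, miR-9-3p had a mean of 2.57 rpmm in TMS, and miR-9-5p a median of 0.693 rpmm in parabiosis. The sizes of both differences thus depend on the added 1 rpmm. Liver miR-9-5p also differed between pools, and the part of pooling in the ratio was not tested. The ratio of miR-122 was 2.85, 5.24 and 6.93 in liver and 1.77, 3.48 and 5.39 in kidney, a difference of 1.61 ± 0.20 (SE). Its 3p reads in kidney had a mean of 2.26 rpmm and a median of 1.13 rpmm. The added 1 rpmm thus lowered the kidney ratio and widened the difference. miR-376b (-1.31), miR-3073a (-1.05) and miR-345 (1.02) made up the rest, and of these miR-3073a (-0.79) and miR-345 (0.92) were not called in parabiosis. Without the 3 libraries that stood against their labelled sex, 4 of 95 hairpins were called.

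Signal was less spread out in liver. The 10 most abundant miRNAs held 65.8% of the miRNA signal in liver and 46.6% in kidney. In liver, miR-122-5p was followed by miR-192-5p, miR-21a-5p (4.55%) and miR-26a-5p (4.10%), and in kidney miR-26a-5p (8.78%), a broadly expressed miRNA, led, followed by let-7c-5p (5.32%), miR-378a-3p (5.0003%), from the gene of the metabolic coactivator Ppargc1b, let-7f-5p (4.74%), let-7a-5p (4.49%) and miR-143-3p (4.30%). Shares of RNA classes were taken of the summed rpmm of all RNAs tested, where identical entries each count, and not of mapped reads. By this measure miRNAs held 18.5% ± 4.52 (SD, n = 45) in liver and 24.7% ± 3.94 (SD, n = 37) in kidney. The difference was -6.25 percentage points (permutation test, two-sided, adjusted over 8 classes p = 4e-05). With the kidney libraries numbered 1 to 12 the difference was -2.67 and missed the threshold (permutation test, adjusted p = 0.093). Ribosomal RNA fragments held 28.5% against 23.5% and long noncoding RNA (lncRNA) 14.3% against 11.7% (permutation tests, adjusted p = 0.00072 and 0.00016), and scaRNA, which guides modification of spliceosomal RNA, 0.221% against 0.150% (adjusted p = 4e-05). In parabiosis miRNAs held 12.9% in liver and 25.9% in kidney, with no test run.

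Outside miRNAs few RNAs separated the organs, and the direction was mostly toward liver. Of 1558 lncRNA transcripts, 65 were called toward liver and 22 toward kidney (5.58%), with 3 and 2 separated. The 65 belonged to 55 genes. Apart from Gm29966, Gm26871 and Gm49890 (1.80), nearly all of them differed by 1.00 to 1.14, just past the threshold. Whether transcripts shared reads was not tested. Gm29966 led, with levels of 38395, 111550 and 175510 rpmm in liver and 55.3, 108 and 219 rpmm in kidney and a log2 difference of 9.87 ± 0.11 (SE); its liver levels lay next to those of miR-122-5p. Of the 87 called lncRNA transcripts, 12 held a mature miRNA in an exon, and all 12 had a miRNA called in the same direction. Positions were at hand for 495 of the 607 miRNAs, so this count can be incomplete. miR-122 had none, and Gm29966 could not be checked as its host. On the kidney side these included C130071C03Rik (miR-9, -3.44), Mir205hg (-3.10), Mir181a-1hg (-3.04) and Mir155hg (-1.84). Reads of a miRNA can be counted for its host in such small RNA libraries, so host and miRNA are not independent measurements.

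Of 569 snoRNAs, guides of ribosomal RNA modification, 27 were called toward liver and 6 toward kidney (5.8%), and none was separated in TMS. The largest difference belonged to Snord123 on the kidney side, with levels of 23.4, 107 and 288 rpmm in liver and 215, 1433 and 2223 rpmm in kidney. The organs overlapped at their ends in TMS and not in parabiosis, and the log2 differences were -3.55 ± 0.15 (SE) and -3.82. Gm22748 (-2.22) and Snora47 (-1.24) followed, and Gm24208 (1.98) and Gm22711 (1.95 and 1.90 for 2 transcripts) led toward liver. Among scaRNAs, 2 of 24 were called (8.33%), Scarna17 (1.17) and Gm25443 (1.17), both toward liver. Of 217 tRNAs 2 were called (0.922%), tRNA-Ala-AGC-1-1 toward liver (1.08) and tRNA-Leu-TAA-2-1 toward kidney (-1.37). The single calls among 166 rRNAs (0.602%) and 620 snRNAs (0.161%) were Gm25164 (1.01) and Gm22710 (-1.06), the latter not called in parabiosis (-0.87).

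The change with age differed between the organs for a set of X-linked miRNAs. The slope on age, in log2 per month, was compared between liver and kidney in a limma fit with an organ by age term, and it differed for 32 of 607 miRNAs (5.27%) and for 33 of all RNAs (0.875%). Of the 32, 29 lay in the X-linked cluster at chrX:66776760-66839084, which is known for expression in testis. Within it, miR-741 lies 135416 bases from Slitrk2, its nearest protein-coding gene. The liver median of miR-741-3p was 0.139 rpmm at 3 months (n = 6), 10.8 rpmm at 18 months (n = 6) and 50.8 rpmm at 27 months (n = 4), while no kidney library exceeded 0.148 rpmm. With each organ fitted alone its slopes were 0.194 in liver and 0.000649 in kidney. In the fit of both organs, with 1 sex term for both, the slopes differed by 0.211 ± 0.0226 (SE; limma, adjusted p = 3.60e-11), and in males alone by 0.228. miR-465a-3p, at 0.980 rpmm at 3 months, 16.1 at 15 months and 146 at 27 months in liver, was at most 0.438 rpmm in kidney, and its slope differed by 0.245. miR-871-5p (0.228), miR-471-3p (0.184), miR-465b-5p (0.162) and miR-743a-3p (0.151) were of the same kind. miR-149-5p, outside the cluster, differed by 0.0902. On the other side were 2 miRNAs with a higher slope in kidney: miR-653-3p, with a kidney median of 3.49 rpmm at 3 months and 12.7 rpmm at 27 months and liver levels of at most 0.236 rpmm (slope difference -0.0511), and miR-3106-5p, with a kidney median of 0.634 rpmm at 3 months and 3.41 rpmm at 27 months (-0.0443), a call that held in 4 of 11 alternatives. Without the 3 libraries that stood against their labelled sex, 32 miRNAs differed as well.

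In liver these X-linked miRNAs also differed between males and females, so that the ages with males alone weigh on the slopes. At 18 to 21 months miR-741-3p lay at 0.264 to 1.07 rpmm in 3 females and at 4.45 to 35.2 rpmm in 8 males, and at 24 to 27 months at 13.3 to 61.1 rpmm in 7 males. miR-465a-3p lay at 1.11 to 2.80 rpmm in the females and 12.0 to 177 rpmm in the males of 18 to 21 months. All 8 listed miRNAs of the cluster were called toward liver over all ages (median 2.66, and 2.23 in parabiosis, where 7 were called and miR-878-3p was not), and none was separated.

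**Figure D4:**
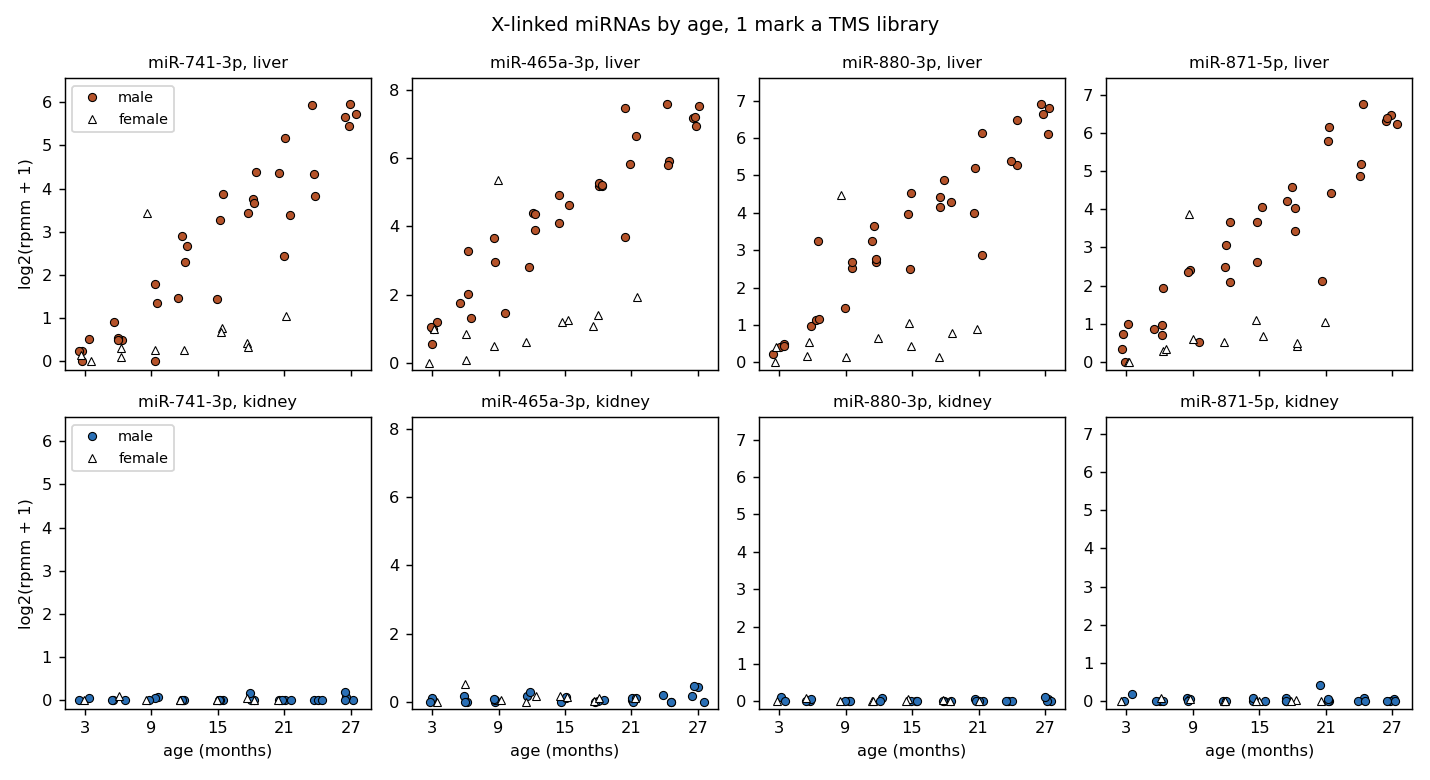
Levels of 4 X-linked miRNAs as log2(rpmm + 1) (y axis) by age in months (x axis) in liver (top) and kidney (bottom), 1 mark a TMS library, circles for males and triangles for females. Male livers rise with age while females and kidneys stay low, and the triangle at 9.82 rpmm of miR-741-3p at 9 months is the library that stood against its labelled sex.

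In parabiosis the difference between aged and young mice of isochronic pairs (IA minus IY) was compared between the organs. It differed for 30 of 579 miRNAs (5.18%) and for 39 of all RNAs (1.07%). Of these 30, 25 (83.3%) were among the 32 of the TMS slopes (78.1%), in the same direction. Toward liver in aged mice, miR-465a-3p differed by 3.03 ± 0.278 (SE), with liver levels of 0.879, 2.05 and 4.48 rpmm in IY and 13.95, 21.2 and 44.3 rpmm in IA. For miR-741-3p the liver medians were 0.832 rpmm in IY, 0.536 in HY, 15.0 in HA and 10.9 in IA, and the kidney medians were 0. By these medians heterochronic partners lay nearer the isochronic mice of their own age, with no test of the partner run. Single HA livers spread wider, from 2.37 to 39.6 rpmm, against 5.41 to 20.2 rpmm in IA. miR-465b-3p (3.03), miR-465c-3p (3.02), miR-880-3p (2.73) and miR-465b-5p (1.89) gave similar sizes, but the -3p reads of miR-465a, b and c can be shared.

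Toward kidney in aged mice were miR-124-3p (-3.11 ± 0.608, SE), miR-3106-5p (-0.84), miR-135b-5p (-0.82), miR-153-3p (-0.71) and miR-148a-3p (-0.98 ± 0.25, SE; limma, adjusted p = 0.037). The kidney medians of miR-148a-3p were 26.6 rpmm in IY, 25.6 in HY, 39.9 in HA and 56.1 in IA, while those of liver were 498, 464, 433 and 509 rpmm. The call for miR-148a-3p held in 2 of 5 alternatives. For miR-124-3p, the leading miRNA of neurons, kidney levels were 2.21, 10.9 and 32.4 rpmm in IY and 34.7, 172 and 461 rpmm in IA, and the liver median was 0.236 rpmm in IY. Its TMS organ difference was -0.86 and not called.

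The difference between males and females (3 to 21 months) also depended on the organ. With an organ by sex term, 18 of 607 miRNAs (2.97%) and 64 of all RNAs (1.7%) differed. Without the 3 libraries that stood against their labelled sex the number of miRNAs was 32, 25 with a male minus female difference that was higher in liver and 7 with one that was lower. Liver replicate 31 left out alone gave 36, and kidney replicate 32 left out alone gave 10. With plate as a covariate the number was 9. In kidney, miR-483-5p, from an intron of Igf2, had a median of 4.85 rpmm in females (0.0579 to 7.66) and 0.0527 rpmm in males (0 to 0.407), and liver levels were at most 0.276 rpmm. The sex difference, male minus female, was higher in liver by 2.13 ± 0.19 (SE) on the log2 scale and 2.37 without the 3 libraries. miR-483-3p gave 1.25. In liver, miR-1948-5p had a median of 4.14 rpmm in females (2.51 to 13.1) and 23.6 rpmm in males (8.67 to 37.6), a difference of 1.93 ± 0.24 (SE), and 2.02 without the 3 libraries. miR-1948-3p gave 1.94 and miR-592-5p, with liver medians of 0.768 rpmm in females and 14.8 rpmm in males, 2.70 ± 0.37 (SE). In the other direction were miR-1247-5p (-2.29, from a liver median of 25.8 rpmm in females to 4.68 rpmm in males), miR-107-3p (-1.22) and miR-107-5p (-1.10), from the gene of pantothenate kinase 1, and miR-7240-5p (-1.09). In kidney the miR-107-3p medians were 330 rpmm in females and 567.8 rpmm in males, and in liver 291 and 206 rpmm.

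Set beside the other tissues of the cohort, only part of the liver side was highest in liver. By median level over 16 tissues, miR-122-5p, miR-101b-3p, miR-1948-3p and miR-465a-3p were highest there, whereas miR-148a-3p (4191 rpmm) and miR-802-5p (2013 rpmm) were highest in pancreas and miR-137-3p (3358 rpmm) in brain. On the kidney side miR-196b-5p, miR-10a-5p, miR-10b-5p, miR-615-3p, miR-429-3p, miR-200b-3p and miR-190a-5p were highest in kidney, miR-200a-3p, miR-200c-3p and miR-141-3p in small intestine, and miR-204-5p (5297 rpmm), miR-218-5p and miR-9-5p in brain. miR-196a-5p had a median of 1550 rpmm in limb muscle and 1513 rpmm in kidney, next to each other in that order. Liver had the lowest median of the 16 tissues for miR-10b-5p, miR-218-5p, miR-204-5p, miR-9-5p, miR-181a-5p and miR-23a-3p. These orders are descriptions with no test.

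**Figure D5:**
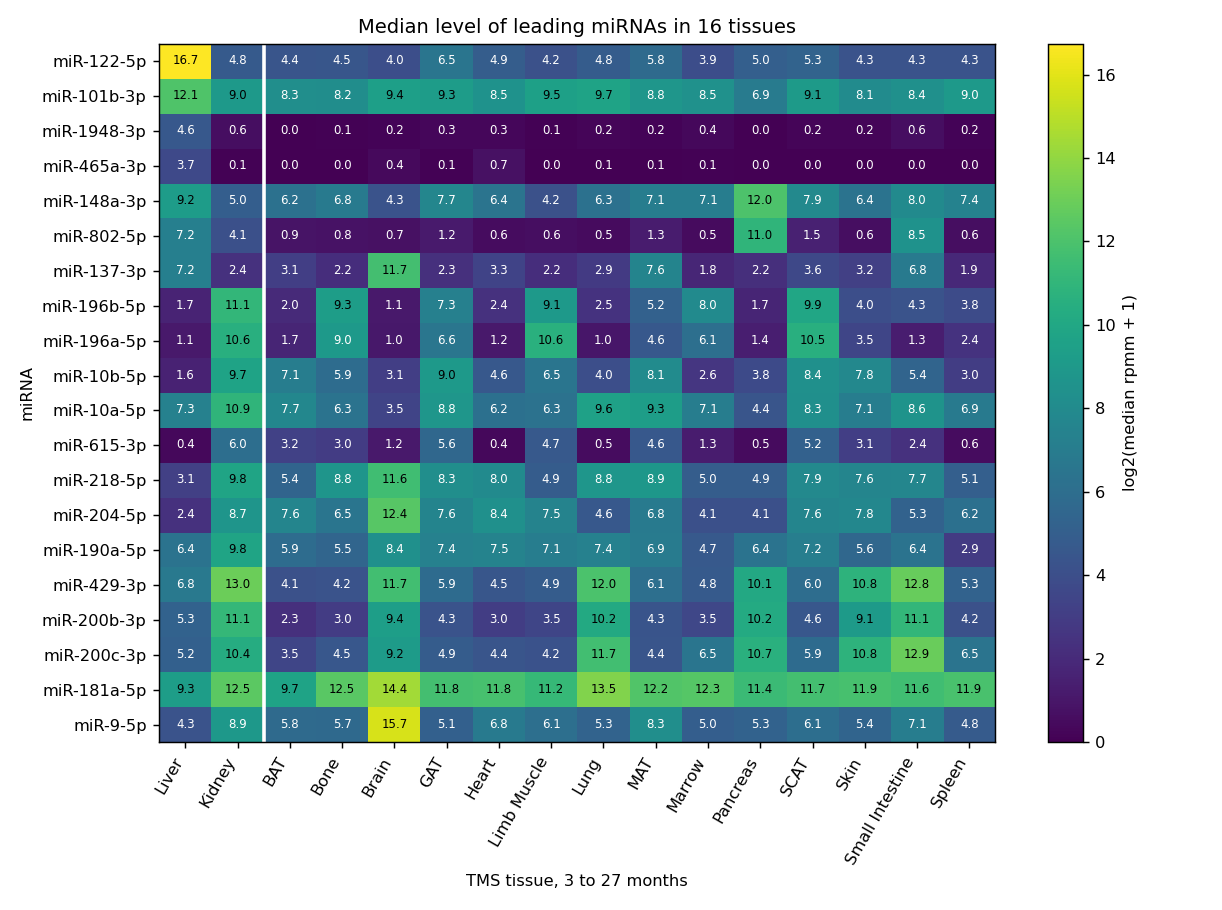
Median level of 20 miRNAs as log2(median rpmm + 1), in color and digits, in liver, kidney and the other 14 TMS tissues (x axis). miR-122-5p reaches 16.7 in liver and at most 6.5 elsewhere, and miR-196b-5p 11.1 in kidney and 1.7 in liver.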

How the data were processed

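Small RNA of 141 liver and kidney libraries was analysed. The authors trimmed and mapped reads to mm10 with miRMaster 2.0 and Bowtie 1.2.3, allowing 1 mismatch, and counted miRNAs (miRBase 22), tRNAs (GtRNAdb 18.1) and other classes (RNACentral 15, Ensembl 100). They left out libraries under 2000000 aligned reads and RNAs that never reached 1 rpmm. The deposited values are a signal, reads per 1000000 mapped reads (rpmm), with other RNAs given per transcript, and no deposited table of comparisons was used. Of the TMS columns, 2 could not be matched to a sample and were not used.

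RNAs with at least 1 rpmm in 10% of the libraries of either organ were tested with limma 3.58.1 (R 4.3.3) on log2(rpmm + 1), with trend, over all RNAs at once, with Benjamini-Hochberg adjustment. Organ was compared with age and sex as covariates in TMS and with group in parabiosis; organ by age, organ by sex (3 to 21 months) and organ by group terms, and ratios of arms and of same-seed pairs, were fitted likewise. Class shares were compared with 100000 permutations, for which 1e-05 is the smallest p possible. Whole reads could be recovered from the values (within 0.05 reads, up to 1000 reads) for 100% of other RNAs and 98.9% of miRNAs in TMS and 98.77% in parabiosis, and edgeR 4.0.16 was run on them, calling 757 RNAs in TMS and 1368 in parabiosis. Tables and figures were made with python 3.11.15, numpy 2.4.6, pandas 2.3.3, scipy 1.17.1 and matplotlib 3.10.9, and gene positions came from GENCODE M21. The tests were checked on simulated data.

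The members and the lists were chosen with earlier results of these data known. Named are the 10 miRNAs with the largest difference in each direction among those called with a mean of at least 10 rpmm in the higher organ. List members that were separated or largest (up to 8 a list) and 3 RNAs per other class and direction are named too. For interactions and ratios, up to 5 in each direction are named. Those with the same verdict in every alternative came first, then those with the smallest adjusted p. Other values are given as descriptions, chosen after they were seen. TMS libraries share title numbers only: over 28 liver and kidney pairs with a number in common the median correlation of deviations was 0.0629, and 11 were over 0.1. In parabiosis same-numbered libraries are of 1 mouse by the labels (29 pairs, median 0.0256). The p-values measure the spread between libraries, which were treated as independent. In TMS the mouse of a library is not known, so organs of the same mouse cannot be ruled in or out. In parabiosis the main fits held no term for the mouse or for the joined pair, although joined mice shared a circulation. The mouse was used as a block only as an alternative, and the part of the joined pair was not tested. The strain of the HY mice is not reported here.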

Additional observations from a re-analysis of the deposited data

Results flagged for a closer look

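Several results stood apart by a set rule, and chance alone picks about 1 in 20 groups as holding an outlying library. Of 40 groups looked at, 9 held a library far from the rest. In parabiosis, 1 HA liver held 39.6 rpmm of miR-741-3p (the next highest of 7 held 18.4 rpmm) and 1 IY liver 4.48 rpmm of miR-465a-3p (next 2.39 rpmm, n = 8). For miR-124-3p, the highest value was 1.25 rpmm in IY liver (next 0.572), 10.9 rpmm in IA liver (next 1.94), 184 rpmm in HA kidney (next 72.1) and 461 rpmm in IA kidney (next 191). In TMS liver at 9 months, the library labelled female that stood against its sex held 9.82 rpmm of miR-741-3p (next 2.44) and 39.8 rpmm of miR-465a-3p (next 11.8), and at 6 months 1 library held 8.66 rpmm of miR-465a-3p (next 3.04).

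Effects that differed between the organs in a test of the difference itself (limma, organ by age, sex or group term) were as follows. The TMS age slope, liver minus kidney in log2 per month, was 0.211 for miR-741-3p, 0.162 for miR-465b-5p, 0.184 for miR-471-3p, 0.151 for miR-743a-3p, 0.228 for miR-871-5p, -0.0511 for miR-653-3p and -0.0443 for miR-3106-5p. The sex difference, male minus female and liver minus kidney on the log2 scale, was 2.13 for miR-483-5p, 1.25 for miR-483-3p, 1.93 for miR-1948-5p, 2.70 for miR-592-5p, 1.94 for miR-1948-3p, -1.09 for miR-7240-5p, -2.29 for miR-1247-5p, -1.22 for miR-107-3p and -1.10 for miR-107-5p. The parabiosis age difference (IA minus IY, liver minus kidney) was 1.89 for miR-465b-5p, 2.73 for miR-880-3p, 3.03 for miR-465a-3p, 3.03 for miR-465b-3p, 3.02 for miR-465c-3p, -0.84 for miR-3106-5p, -3.11 for miR-124-3p, -0.82 for miR-135b-5p, -0.71 for miR-153-3p and -0.98 for miR-148a-3p.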

How the results depend on the processing

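Of 1788 values of 164 named results under the alternatives, 1745 kept direction and side of the threshold, 43 lost the threshold and 0 reversed. Interactions and ratios unchanged in every alternative were named first, so the share kept was partly set in advance. The organ differences counted were those already called. Among 638 values of counts and class shares, 611 stayed within their limits. Called RNAs numbered 629 in TMS and 1367 in parabiosis with scaling to miRNA reads, 694 and 1145 with a pseudocount of 0.1 rpmm, 204 and 472 with 5 rpmm, and 757 (376 liver, 381 kidney) and 1368 (853 and 515) with edgeR on recovered reads. With a pseudocount of 5 rpmm 168 miRNAs were called in TMS. With the kidney libraries numbered 1 to 12, 35 RNAs and 32 miRNAs were separated, 34 RNAs in both cohorts, 3 arm ratios were called, and the miRNA share differed by -2.67 (permutation test, adjusted p = 0.093), the snRNA share by -8.79 (permutation test, adjusted p = 0.00034) and the snoRNA share by 1.84 percentage points, which reversed. The snoRNA share, not past the threshold at first, also reversed with 1-month libraries (0.450), in males alone (0.522) and with identical RNAs counted once (0.831), and the piRNA share with 1-month libraries (-1.54e-05). A mean of at least 10 rpmm left 7 miRNAs for the age slope, 5 for the parabiosis age effect and 11 for the sex difference, as fewer RNAs were tested. With plate as covariate 9 miRNAs differed by sex, and without the 3 libraries against their labelled sex, an alternative chosen after seeing the data, 32 did. The cause of the other changes was not tested. Leaving out 1 library at a time gave 366 to 401 called RNAs, 256 to 265 called miRNAs, 84 to 95 separated RNAs, 79 to 89 separated miRNAs, 31 to 33 miRNAs for the age slope and 10 (without kidney replicate 32) to 36 (without liver replicate 31) for the sex difference. With the replicate number as a block, 442 RNAs and 264 miRNAs were called in TMS, where libraries share only a number, and with the mouse as a block, which pairs the organs, 736 RNAs and 358 miRNAs were called in parabiosis and 28 miRNAs had a different age effect. The block changed no other count by over 1.5 times. Near-identical miRNAs can share reads, miRNAs under about 1 rpmm rest on few reads, and pools could not be balanced against organ.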
